A study of Mus musculus with 34 samples.

Results

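Livers of 2 control mouse lines, WT and LWT, were compared while both received fenofibrate, an activator of the nuclear receptor PPARA. The mice were taken by their labels, 4 WT and 5 LWT of the 34 mice of the series, and each of the 15571 genes detected was compared between them. All 9 were male C57Bl/6J mice of 14 weeks on chow. They were given fenofibrate by gavage at 100 mg per kg per day over 10 days and were killed at zeitgeber time 14, the early dark phase. Other mice of the same lines, 4 WT and 4 LWT, received the vehicle, 3% gum arabic. The series also holds a whole-body Ppara knockout (KO, 5 on fenofibrate and 3 on vehicle) and a liver Ppara knockout (LKO, 5 and 4). LWT is the control line of LKO. A control of that kind usually carries the floxed gene without Cre, but the labels do not state its alleles. Nor do they state how either line was bred or how many colonies each came from. WT and LWT mice are both labelled C57Bl/6J, so line, colony and any difference in background cannot be told apart here.

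PPARA is a lipid-sensing transcription factor of the hepatocyte. Bound by a fatty acid or a fibrate, it pairs with RXR on DNA and switches on genes of fatty acid uptake, peroxisomal and mitochondrial oxidation and omega-hydroxylation, and it is known for driving the hepatic response to fasting and to fibrates. Ppara lies on mouse chromosome 15.

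Levels are log2 of the array signal, set against each array's own 75th percentile, so a difference of 1 is a 2-fold change. A difference is LWT minus WT, given with its standard error (SE), and a gene was called when limma's p, adjusted by Benjamini-Hochberg over all 15571 genes, was under 0.05. No spot was saturated. The share of probes well above background was 55.8% to 63.2% on the WT arrays and 50.6% to 58.4% on the LWT arrays, with means of 59.2% and 54.7%. Arrays correlated across probes at 0.991 to 0.994 within WT, 0.987 to 0.993 within LWT and 0.987 to 0.992 between the lines. In bulk liver, fewer cells of a type and less RNA per cell cannot be told apart. Hepatocyte markers were high in every mouse, as the tissue label has it. The mean level of the 14 measured was 8.91 to 9.09 in WT and 8.96 to 9.22 in LWT mice, 0 were called (3 at an unadjusted p under 0.05), and their median difference was 0.07.

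Neither Ppara nor any measured gene of the lists it is known to control was called between the treated livers of the lines, though for some the interval was wide. The brightest Ppara probe (mm9 chr15:85632110-85632169) read 6.88, 6.97, 6.66 and 6.95 in the WT mice and 6.80, 6.87, 6.79, 6.94 and 6.76 in the LWT mice. The ranges overlapped, and the difference was -0.03 ± 0.15 with a 95% confidence interval of -0.34 to 0.28. The other 2 Ppara probes differed by 0.29 ± 0.22 and 0.05 ± 0.15, and none of the 3 was called (limma adjusted p from 0.812 to 0.984). In KO and LKO mice on fenofibrate the same probe averaged 5.43 and 5.84.

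Ehhadh, the bifunctional enzyme of peroxisomal beta-oxidation, differed by 0.12 (95% interval -0.46 to 0.71). The omega-hydroxylases Cyp4a10 and Cyp4a14 differed by 0.02 (-1.28 to 1.31) and 0.01 (-1.97 to 1.99). These ranges overlapped between the lines. The wide intervals draw on the spread in all groups of the fit, since the treated mice themselves ran only from 9.67 to 9.97 and 9.70 to 10.15 for Cyp4a10. Pdk4, the kinase that restrains pyruvate oxidation, differed by -0.01 (-0.99 to 0.96) and Vnn1, a pantetheinase, by 0.00 (-0.77 to 0.77). Cd36, a fatty acid translocase, differed by 0.19 (-0.18 to 0.55), the droplet coat gene Plin2 by 0.07 (-0.44 to 0.59) and the thioesterase Acot1 by 0.11 (-0.90 to 1.12). Here too the lines overlapped. Fgf21, a fasting hormone of the liver, read 0.22, 1.54, 0.71 and 0.74 in WT and 0.80, 1.87, 1.62, 1.81 and 2.65 in LWT. Its difference of 0.95 (-0.44 to 2.33) was not called (adjusted p = 0.708). Cpt1a, the carnitine palmitoyltransferase that admits fatty acids to mitochondria, read 6.91 to 7.03 in WT and 7.11 to 7.28 in LWT mice. These groups did not overlap, but the difference of 0.24 ± 0.08 was not called over all genes (adjusted p = 0.197).

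**Figure D1:**
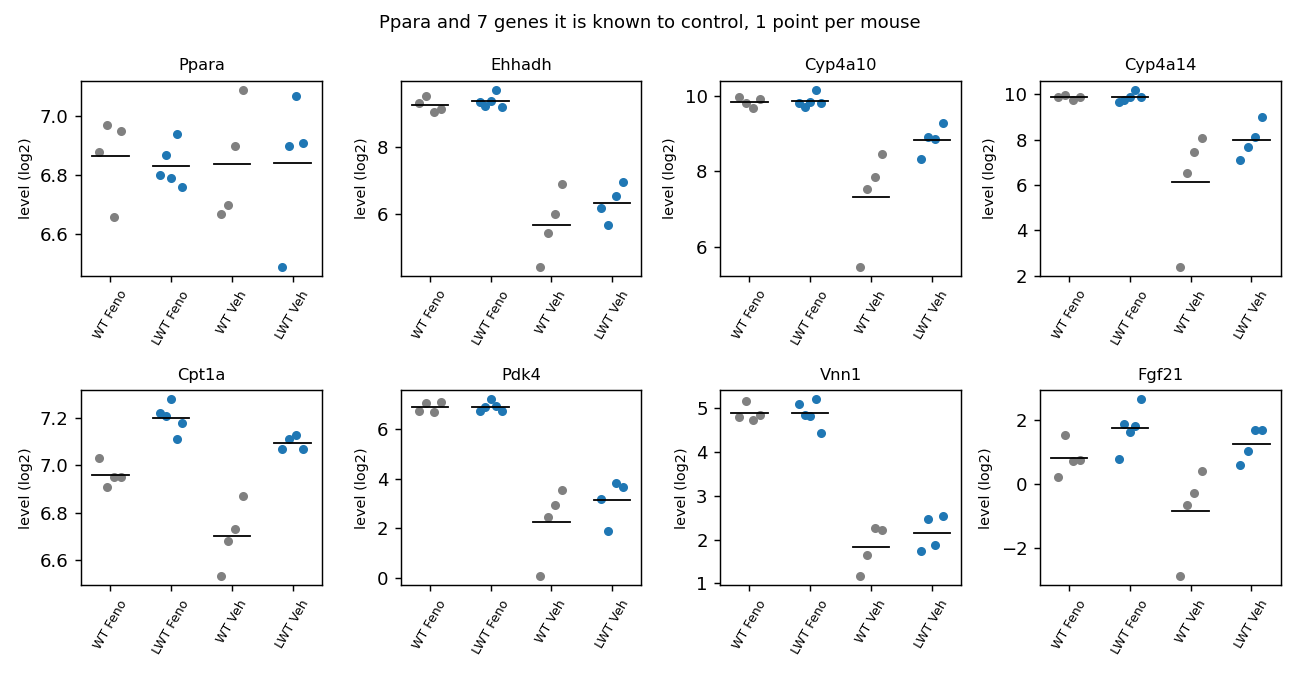
Levels (log2, against each array's own 75th percentile) of Ppara and 7 genes it is known to control, with 1 point per mouse, LWT in blue, WT in grey and group means as bars. On fenofibrate the 2 lines overlap for 7 of the 8 genes, and for Cpt1a the LWT mice (7.11 to 7.28) lie above the WT mice (6.91 to 7.03).

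No gene passed the test in 5 lists of PPARA-controlled lipid genes, at a background of 0.539% of all genes called. The 27 measured genes of peroxisomal fatty acid oxidation had a median difference of 0.11, the 22 of mitochondrial oxidation 0.08 and the 14 of omega-oxidation 0.03. The median was 0.07 for 20 other PPARA targets and 0.04 for 26 genes of lipid uptake and droplets, beside 0.008 over all genes. At an unadjusted p under 0.05 each of the 5 lists had 1 to 3 genes. In the peroxisomal list 23 of 27 differences were above 0, and in the mitochondrial list 20 of 22, against 52.2% of all genes. In the lipid uptake and droplet list Cidea, a droplet protein, differed most of all 5 lists (-1.86 ± 0.58, adjusted p = 0.189). It read 0.07, 0.48, -0.54 and -0.89 in WT and -3.36, -2.10, 0.01, -1.40 and -3.57 in LWT mice, with overlap through LWT replicate 3. Without that mouse it was called (adjusted p = 0.0234), as it was in the authors' value table (0.0362). Krt23, a keratin among the other targets, differed by 0.80 ± 0.31 without overlap (adjusted p = 0.343), and Cyp4f14 by -0.33 ± 0.12. The widest members of the oxidation lists were Acot6, a peroxisomal thioesterase, at 0.56 ± 0.25 and Amacr, a racemase, at -0.58 ± 0.29. On vehicle the 2 oxidation lists had medians of 0.31 and 0.24, and 5 of their genes were called there, at a background of 0.931%. Among them, the acyl-CoA synthetase gene Slc27a2 (0.44), Cpt1a (0.39) and Etfdh (0.45) were higher in LWT, and Abcd2, a peroxisomal transporter, was lower (-1.76). Of the WT vehicle mice, replicate 1 read lowest for Cyp4a14 (2.39, others 6.55 to 8.09), Pdk4 (0.06, others 2.44 to 3.55) and Fgf21 (-2.88, others -0.64 to 0.42).

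With both lines on the drug, 84 genes were called between them, 34 higher (0.218%) and 50 lower (0.321%) in LWT, or 0.539% of those tested. At least 2-fold differences numbered 11 higher and 32 lower. At an unadjusted p under 0.05 there were 1564 genes. The 2 groups did not overlap for 74 of the 84 genes, beside 774 of all genes, or 4.97%. Slides 3 and 5 held mice of both lines, and within each of them all 84 differences had the same sign as in the fit. Those arrays also entered the calls, and where the groups do not overlap the sign within a slide is fixed. The signs are thus no test of the slides. A slide block raised the count for LWT minus WT on fenofibrate to 141. The count rested on single arrays too, since it was 53 without WT replicate 1 or 4, 47 without WT replicate 3 and 132 without LWT replicate 3.

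The called genes clustered on the chromosome of Ppara. Chromosome 15 held 38 of them among its 630 tested genes (6.03%), against 46 of 14941 elsewhere (0.308%). It carried 45.2% of the calls and 4.05% of the genes tested. When the genes outside chromosome 15 were adjusted on their own, 29 were called. Chromosome 8 came next in number with 7 calls, 6 of them in a single cluster at Pbx4.

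**Figure D2:**
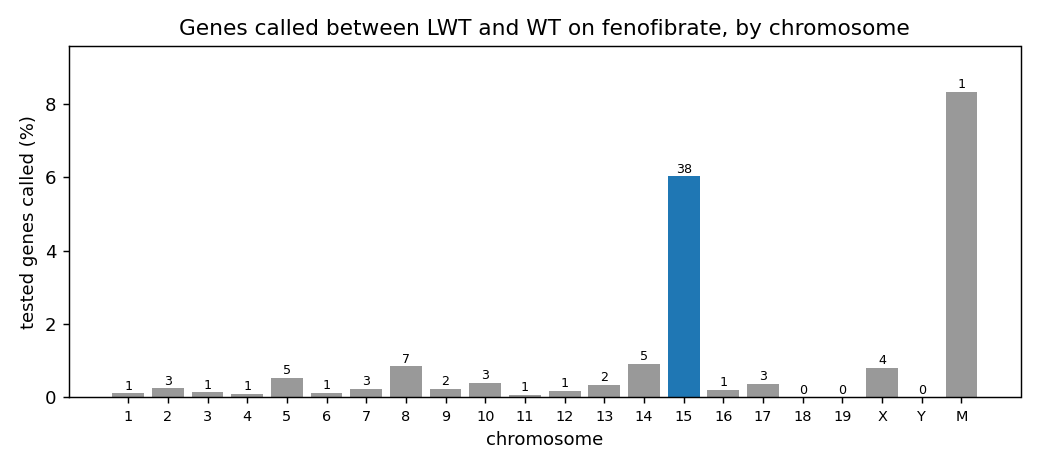
Share of tested genes called between LWT and WT on fenofibrate on each chromosome (percent, bars from 0), with the number called above each bar and chromosome 15 in blue. Chromosome 15 stands at 6.03% with 38 genes, and the mitochondrial genome (M) at 8.33% with 1 of 12.

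Cdpf1 led the calls by p. Its probe (mm9 chr15:85637436-85637495, minus strand) begins 184 bases beyond the last Ppara probe. Cdpf1 read 0.36, 0.77, 0.42 and 0.25 in WT and -1.61, -1.50, -1.23, -1.69 and -1.07 in LWT mice. The groups lay far apart, with LWT 3.65-fold lower (-1.87 ± 0.15, limma adjusted p = 9.37e-09). On vehicle it was lower by -1.77 as well, and in KO and LKO mice on fenofibrate it averaged -1.03 and -1.31, near the LWT level. Its RefSeq promoter window is printed because it is the called promoter next to the targeted gene (GRCm38.p6 chr15:85811648-85811947, minus strand, all lower case as no part is marked).
Cdpf1: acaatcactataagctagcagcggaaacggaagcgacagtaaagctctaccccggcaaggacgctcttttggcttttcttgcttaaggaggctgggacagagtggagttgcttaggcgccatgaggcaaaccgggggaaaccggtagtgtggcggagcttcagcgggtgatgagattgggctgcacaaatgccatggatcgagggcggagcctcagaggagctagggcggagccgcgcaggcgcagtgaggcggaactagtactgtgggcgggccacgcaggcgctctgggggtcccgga

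Within 10 Mb of the Ppara probe, 14 of 276 tested genes were called (5.07%), 4 higher and 10 lower in LWT. Within 5 Mb the count was 4 of 127 (3.15%) and within 20 Mb it was 19 of 461 (4.12%). These shares lay above the 0.539% of all genes and below the 6.03% of the whole chromosome. Poldip3, an mRNA export factor, read 4.06 to 4.40 in WT and 4.84 to 5.18 in LWT mice, 1.69-fold higher in LWT (0.75 ± 0.08, adjusted p = 8.78e-07). Bik, a BH3-only apoptosis gene, read 0.33, 0.21, 0.19 and -0.60 in WT and -2.42, -1.92, -1.40, -2.18 and -2.55 in LWT. It was 4.36-fold lower in LWT (-2.13 ± 0.22, adjusted p = 7.30e-07). Lgals1, the lectin galectin-1, read 3.63 to 3.88 in WT and 1.44 to 1.93 in LWT mice (-2.05 ± 0.22, adjusted p = 9.85e-07). None of these groups overlapped.

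Tomm22, a receptor of the mitochondrial import channel, read 3.83, 3.87, 3.95 and 3.16 in WT and 2.01 to 2.39 in LWT (-1.54 ± 0.25). Pnpla3, a lipase-like gene of the lipid droplet, was not well above background in any LWT mouse and was at least 2.57-fold lower (adjusted p = 0.00758, and 0.0532 without WT replicate 3). Cdc42ep1, an effector of the GTPase Cdc42, was lower by -1.53 ± 0.24. Lgals2, another galectin, was at least 2.07-fold lower (adjusted p = 0.0396). The Cdc42ep1 and Lgals2 probes lie side by side on opposite strands. The remaining falls were Pdxp, which dephosphorylates vitamin B6 (-1.44 ± 0.32), the growth factor gene Pdgfb (-1.16 ± 0.23) and Ift27, of intraflagellar transport (-0.67 ± 0.11). Pick1, a PDZ scaffold, was higher by 0.61 ± 0.12 at its brightest probe and by 0.16 at a second, uncalled probe. The phospholipase Pla2g6 (0.57 ± 0.13) and the dynein light chain gene Dnal4 (0.35 ± 0.08) were higher too. Leaving out 1 mouse ended some of these calls: the adjusted p rose to 0.189 for Pdxp, 0.142 for Pla2g6 and 0.0562 for Pick1 without WT replicate 3, to 0.143 for Dnal4 without WT replicate 4, and to 0.122 for Lgals2 and 0.103 for Pdgfb without WT replicate 1.

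**Figure D3:**
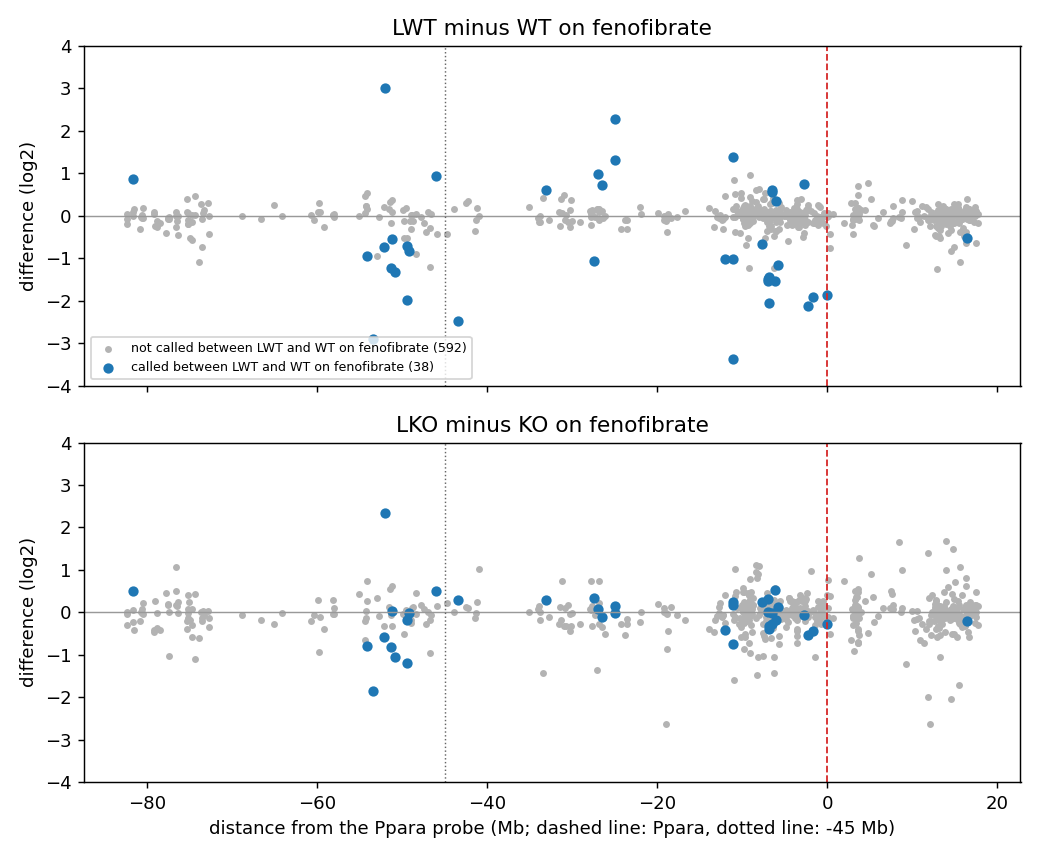
Difference (log2) of each tested chromosome 15 gene against the distance of its probe from the Ppara probe (Mb), for LWT minus WT (top) and LKO minus KO (bottom), all on fenofibrate. Blue points are the 38 genes called between LWT and WT; of the 12 left of the dotted line, 45 Mb from Ppara, 9 are called in the lower panel with the same sign, and of the 26 right of it 1.

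Further calls lay far from Ppara on chromosome 15. A split at 45 Mb from Ppara, chosen after the values were seen, left 12 of 112 genes (10.7%) called beyond it (probes from 3932226 to 39614608 on mm9) and 26 of 518 (5.02%) nearer. The nearer calls began at 42256335, so the split does not mark off a separate block. Tspyl5, a nucleosome assembly protein-like gene, was not above background in any WT mouse. It read -6.18, -6.72, -5.67 and -6.75 there and -3.73, -3.29, -3.20, -3.31 and -3.02 in LWT, at least 2.92-fold higher (adjusted p = 4.31e-06). Its probe entered the test only through the LWT groups, and that p rests on WT signals not above background. Snhg18, a host gene of small nucleolar RNA, read -0.81 to -0.68 in WT and -4.60 to -3.22 in LWT mice, 7.51-fold lower (-2.91 ± 0.37, adjusted p = 1.78e-05). Spag1, a dynein arm assembly gene, was not above background in any LWT mouse and was at least 3.17-fold lower (adjusted p = 2.15e-05). Stk3, a kinase of the Hippo pathway, read -0.80 to -0.52 in WT and -2.29 to -1.73 in LWT mice (-1.32 ± 0.20). Matn2, a matrix protein (-1.23 ± 0.18), Atpsckmt, a methyltransferase of the ATP synthase c subunit (-0.94 ± 0.15), and Cpq, a carboxypeptidase (-0.73 ± 0.10), were lower as well. The WT and LWT mice did not overlap for any of these 7 genes.

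Dpys, the dihydropyrimidinase of pyrimidine breakdown, was called in opposite directions by its 2 probes. The brightest read 5.04 to 5.35 in WT and 5.75 to 6.31 in LWT mice (0.93 ± 0.16, adjusted p = 0.00145). The other differed by -3.83 ± 0.80 (adjusted p = 0.0169), so no direction is given for the gene. Counts by direction in this report include Dpys by its brightest probe, as higher.

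The 2 parts of the chromosome differed in how the knockout lines stood. In all, 3360 genes (21.6%) were called between LKO and KO on fenofibrate, so a call there is common. Of the 12 far genes, 9 were called there in the direction of the LWT difference, with a median LKO minus KO difference, taken in the direction of the LWT difference, of 0.69. Of the 26 nearer ones 1 was called in the same and 1 in the opposite direction, with a median of -0.04. Stk3 averaged -0.70 in WT and -0.65 in KO, but -2.02 in LWT and -1.69 in LKO mice on fenofibrate. Snhg18 averaged -0.75 in WT and -0.62 in KO, and -3.66 in LWT and -2.47 in LKO. Bik, near Ppara, averaged 0.03 in WT, but -2.09, -1.27 and -1.80 in LWT, KO and LKO. Lgals1 averaged 3.72 in WT against 1.67, 1.78 and 1.45, and Poldip3 4.19 against 4.94, 5.00 and 4.95. For these 3 nearer genes the WT mean stood apart from those of the other lines, and for the 2 far ones WT and KO stood apart from LWT and LKO. No test of that contrast between the 2 parts was run.

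Chromosome 15 held further called genes outside these places. Lratd2 read -5.77 to -3.37 in WT and -2.69 to -1.26 in LWT mice, 4.89-fold higher (2.29 ± 0.37, adjusted p = 0.000673), with 1 WT mouse not above background. Jrk was higher by 1.39 ± 0.28, with 2 of 4 WT mice above background (adjusted p = 0.0714 without WT replicate 4), and Tmem65, a mitochondrial membrane protein, by 0.99 ± 0.17. Angpt1, the ligand of the endothelial receptor Tie2, was not above background in any LWT mouse and was at least 2.84-fold lower (adjusted p = 0.0148, and 0.102 without WT replicate 1). On vehicle its difference was 0.10. Washc5, of the endosomal WASH complex, read 2.49 to 2.58 in WT and 3.17 to 3.38 in LWT mice (0.72 ± 0.09), and Med30, of the Mediator complex, was higher by 0.60 ± 0.11. Itgb7, an integrin chain, was the called gene farthest past Ppara, 16.41 Mb away (-0.53 ± 0.12).

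A second cluster, on chromosome 8, was higher in LWT. Of 28 genes tested within 0.5 Mb of Pbx4, 6 were called, all higher (0.218% of all genes were called higher), over 277 kb (mm9 72393975 to 72671113). This window was centred on Pbx4, itself 1 of the 6, after the values were seen. The count beside that share is therefore no test. Pbx4, a homeobox transcription factor, read -4.34, -3.90, -4.22 and -3.84 in WT and 1.97, 1.78, -3.80, 1.01 and 1.68 in LWT mice. So 4 LWT mice were high and LWT replicate 3 lay at the WT level. The fitted difference was the widest of all called genes at 24.3-fold (4.60 ± 0.92, adjusted p = 0.00945). Rfxank, of the complex that drives MHC class II genes, read 0.12 to 0.44 in WT and 1.78, 1.88, 0.94, 1.20 and 1.76 in LWT (1.20 ± 0.19, adjusted p = 0.000524). Borcs8, which positions lysosomes, was higher by 0.85 ± 0.17 (limma adjusted p = 0.0121) and the splicing gene Sugp1 by 0.74 ± 0.12 (0.000771). The cohesin loader Mau2 was higher by 0.64 ± 0.15 (limma adjusted p = 0.046) and Ndufa13, of respiratory complex I, by 0.54 ± 0.13 (0.0425), both close to the threshold. The calls of Borcs8, Sugp1, Mau2 and Ndufa13 were not followed with a mouse left out. LWT replicate 3 was the lowest LWT mouse for all 6 genes. For Mau2 and Ndufa13 it fell within or near the WT range, at -0.12 against -0.18 to -0.11 and at 8.36 against 8.26 to 8.46.

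The vehicle mice of the LWT line showed a like split. Pbx4 read 0.77, -4.30, 1.64 and 0.67 in LWT and -4.23 to -3.37 in WT on vehicle, and LWT vehicle replicate 2 was lowest and replicate 3 highest for all 6 genes. The group means of Pbx4 in KO and LKO mice lay between -4.65 and -3.71. On vehicle, where 0.931% of all genes were called, Rfxank (0.92) and Sugp1 (0.53) were called and Pbx4 (3.50, adjusted p = 0.0757) was not. Between the 6 called genes lay Yjefn3 (0.69), Gatad2a (0.53), Tm6sf2 (0.67), Hapln4 (0.75) and Nr2c2ap (0.53), which were not called, and Tssk6 at -0.24. Outside them, Atp13a1 before Pbx4 differed by -0.03 and Slc25a42 after Borcs8 by -0.07. Pbx4 was called at an adjusted p of 3.87e-05 without LWT replicate 3.

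**Figure D4:**
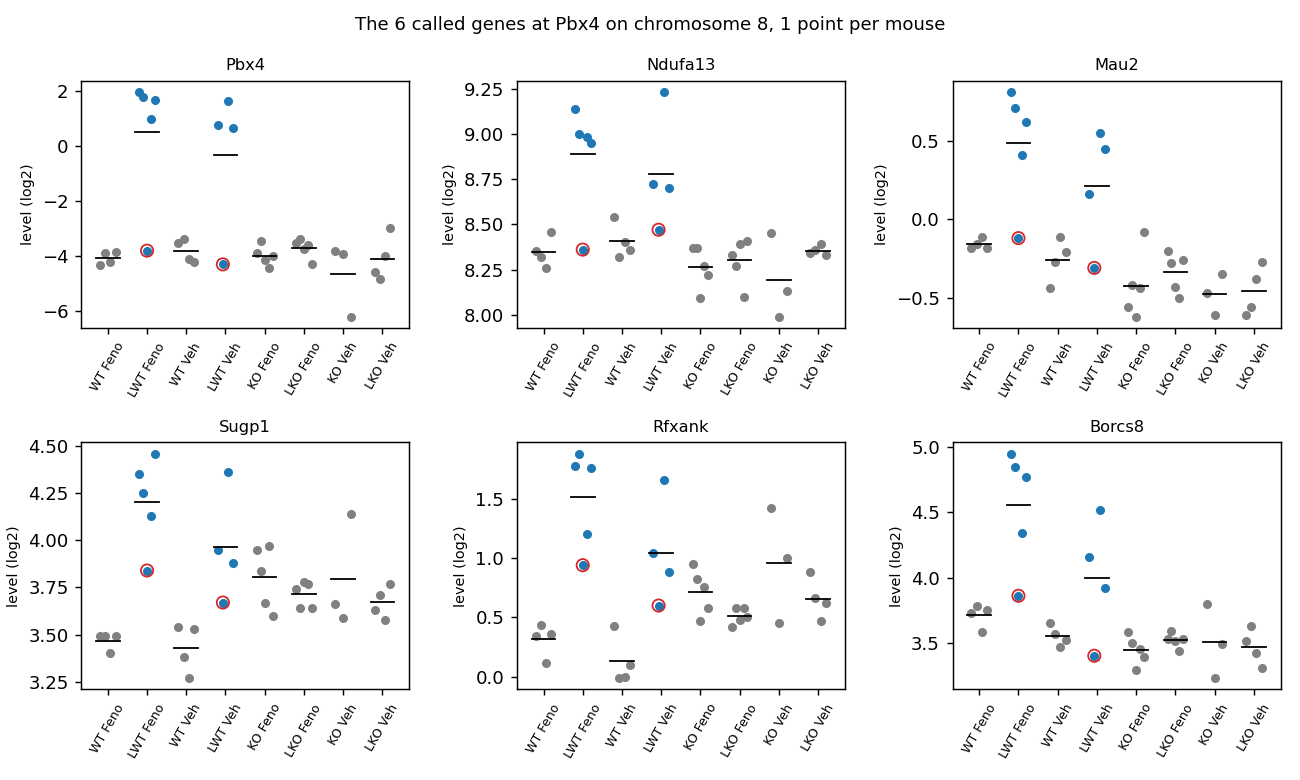
Levels (log2, against each array's own 75th percentile) of the 6 called genes at Pbx4 in all 8 groups, with 1 point per mouse, LWT in blue, the other lines in grey and bars at group means. Red rings mark LWT fenofibrate replicate 3 and LWT vehicle replicate 2, the lowest LWT mouse of its group in each panel.

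The promoters of Pbx4, Rfxank and Sugp1 are shown because Pbx4 had the widest difference and the starts of the other 2 each lie close to that of another called gene. In RefSeq, the promoter windows of Rfxank and Borcs8 overlap by 199 bases on opposite strands and those of Sugp1 and Mau2 by 152, and capitals mark the shared bases. Each window spans the start of its gene and lies mostly before it (GRCm38.p6, Pbx4 chr8:69832374-69832673 plus strand, Rfxank chr8:70139148-70139447 minus strand, Sugp1 chr8:70042537-70042836 plus strand).
Pbx4: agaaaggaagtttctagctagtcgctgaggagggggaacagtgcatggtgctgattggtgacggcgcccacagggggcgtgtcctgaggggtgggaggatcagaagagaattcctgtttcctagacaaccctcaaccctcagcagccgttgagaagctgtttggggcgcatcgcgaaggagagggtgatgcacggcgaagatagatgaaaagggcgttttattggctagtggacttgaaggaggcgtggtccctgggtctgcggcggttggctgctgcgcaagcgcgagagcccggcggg
Rfxank: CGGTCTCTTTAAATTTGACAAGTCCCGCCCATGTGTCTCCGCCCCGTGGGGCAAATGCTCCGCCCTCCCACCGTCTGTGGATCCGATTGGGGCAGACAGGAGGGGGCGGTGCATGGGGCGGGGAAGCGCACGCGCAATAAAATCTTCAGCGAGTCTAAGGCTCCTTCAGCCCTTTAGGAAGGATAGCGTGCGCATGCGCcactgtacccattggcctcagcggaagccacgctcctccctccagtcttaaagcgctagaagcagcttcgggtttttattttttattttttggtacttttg
Sugp1: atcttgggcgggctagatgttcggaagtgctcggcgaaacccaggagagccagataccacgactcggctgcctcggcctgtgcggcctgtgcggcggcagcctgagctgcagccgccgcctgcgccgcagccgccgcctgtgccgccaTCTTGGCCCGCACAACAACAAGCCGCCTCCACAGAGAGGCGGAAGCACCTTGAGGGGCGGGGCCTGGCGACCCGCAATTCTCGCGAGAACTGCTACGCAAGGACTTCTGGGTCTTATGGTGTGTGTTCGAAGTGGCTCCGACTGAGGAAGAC
The nuclear receptor half-site AGGTCA, searched on both strands, was in none of these 3 windows nor in that of Cdpf1, and in 1 of all 8 windows of the 6 called genes at Pbx4 (12.5%). RefSeq windows matched 48 of the 84 called genes, and 8 of their 59 windows held it (13.6%), beside 16.3% of all 32851 windows.

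Gdpd3, an enzyme that cleaves lysophospholipids, was higher in LWT with a wide spread. It read -3.82, -3.73, -3.97 and -4.45 in WT and -0.11, 0.84, 1.28, 1.94 and -3.62 in LWT mice, so 4 LWT mice were high and replicate 5 lay by the WT range. The difference was 4.06 ± 0.85 (adjusted p = 0.0146, and 0.0702 without WT replicate 4). On vehicle Gdpd3 was at -4.07 in LWT and -4.11 in WT, and on fenofibrate it averaged 3.44 in KO and -3.00 in LKO. The LKO mice on fenofibrate were split, at -3.86, -3.77, -4.96, -3.66 and 1.26. On vehicle the means were 3.85 in KO and 0.93 in LKO.

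Outside chromosome 15, 3 further genes were called in the same direction on fenofibrate, on vehicle and between LKO and KO, ATP8, Entpd4 and Pld3. Between LKO and KO 21.6% of all genes were called. Of the 46 genes called outside chromosome 15, 4 were called there in the same direction and 10 in the opposite one, and 20 had the same sign. ATP8 is the mitochondrially encoded ATP synthase subunit 8. It read 7.74, 7.88, 7.60 and 7.65 in WT and 8.27, 8.27, 8.39, 8.42 and 8.07 in LWT mice (0.57 ± 0.08, adjusted p = 0.000105), and it was the 1 called gene among 12 tested of the mitochondrial genome. The differences were 0.45 on vehicle and 0.34 between LKO and KO. Only 1 detected probe measured 73 of the 84 called genes, ATP8 among them. Of the 12 other probes of the remaining 11 genes, 10 had the same sign (4 called) and 2 the opposite sign (1 called). The ATP8 level thus rests on a single probe on mm9 chrM:7870-7929, plus strand, shown because no other detected probe measured the gene.
ATP8: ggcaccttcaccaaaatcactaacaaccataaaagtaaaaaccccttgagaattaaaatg
Pld3, a lysosomal nuclease of the phospholipase D family, read 1.89 to 2.14 in WT and 1.14 to 1.53 in LWT mice (-0.77 ± 0.13, adjusted p = 0.000771). Entpd4, a Golgi nucleotidase on the list of genes known to differ between strains, read 3.30 to 3.52 in WT and 4.03 to 4.36 in LWT (0.85 ± 0.12), and 0.82 at its second, also called probe. Near-identical copies of Entpd4 exist, so its level is uncertain. Of the 12 measured genes of that strain list Entpd4 was the only one called on fenofibrate, and Nnt differed by 0.34 and Ide by -0.08. Erdr1, which also has close copies and no position in the files, read 5.91, 6.78, 7.40 and 6.46 in WT and 4.66, 5.40, 3.73, 5.17 and 4.52 in LWT (-1.94 ± 0.43, adjusted p = 0.0234, and 0.162 without WT replicate 3).

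Several genes that fenofibrate raised in WT stood lower in treated LWT livers. Among the 50 genes lower in LWT, 13 had a called rise with the drug in WT (10.3% of all genes did). Those drug contrasts use the same treated WT mice as the line difference. A high reading in these mice gives both, so the count is no separate evidence. Ly6d, a membrane protein of the Ly6 family on chromosome 15, read 3.07, 4.21, 2.07 and 2.44 in WT and -1.04, -0.87, 1.36, -0.97 and -0.59 in LWT mice on fenofibrate. On vehicle it read -1.51 to -0.86 in WT and -2.05 to -1.38 in LWT mice. The treated lines did not overlap, and LWT was 10.3-fold lower (-3.37 ± 0.37, adjusted p = 1.77e-06). LWT replicate 3 was the highest LWT mouse. The line difference on the drug exceeded that on vehicle by -3.08, with an interaction adjusted p of 0.0597.

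Rgcc, a regulator of the cell cycle, read 0.02, -1.62, -1.17 and -1.36 in WT and -3.59 to -3.05 in LWT (-2.34 ± 0.30, adjusted p = 2.15e-05). Dgkh, a diacylglycerol kinase named here after its values were seen, read 0.72 to 1.07 in WT and -1.12 to -0.40 in LWT (-1.78 ± 0.15, adjusted p = 1.03e-08). The exchange factor gene Tiam2, called as lowered by the drug in WT (-1.61, a fall called for 11.3% of all genes), was higher in LWT by 1.19 ± 0.25 (adjusted p = 0.0133, and 0.102 without WT replicate 1). The chemokine scavenger Ackr4 was higher by 1.05 ± 0.25 (adjusted p = 0.0423, and 0.191 without WT replicate 3), but the lines overlapped and its second probe, at 0.58, was not called. For Dgkh, Rgcc and Tiam2 the lines did not overlap.

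Mmp7, a matrix metalloproteinase, read -0.59, -1.96, -1.03 and -1.40 in WT and -4.06, -3.86, -2.19, -3.17 and -3.76 in LWT mice (-2.16 ± 0.37, adjusted p = 0.00129), with 0.21 on vehicle. Named after their values were seen, the laminin gene Lamc3 (-1.25 ± 0.26) and the epithelial transcription factor Klf5 (at least 1.49-fold lower) were called lower too. Of 11 cholangiocyte markers measured, 0 were called, 7 had an unadjusted p under 0.05, 8 were below 0 and the median was -0.46, with Epcam at -1.45 (adjusted p = 0.0927), Tspan8 at -1.32 and Krt19 at -1.20 (adjusted p = 0.0948). Krt23 ran the other way, at 4.68 to 5.42 in WT and 5.51 to 6.05 in LWT mice. The mean level of the list was -1.64 to -1.16 in WT and -2.12 to -1.40 in LWT mice, and on vehicle its median was 0.07. Of 13 stellate cell markers 0 were called, 4 had an unadjusted p under 0.05 and 12 were below 0, with a median of -0.27. The part of these cell types in the values of Mmp7, Lamc3 and Klf5 was not tested.

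Among genes of amino acid breakdown, those that passed the test were higher in LWT. Of 30 measured, 3 were called higher (Hal, Gnmt and Gls2), beside 0.218% of all genes, and 0 lower. Of the differences 28 were above 0, beside 52.2% of all genes, and the median was 0.27 beside 0.008 over all genes. At an unadjusted p under 0.05 there were 16, beside 1564 of all 15571 genes. Another list leaned to 1 side as well: in oxidative phosphorylation 21 of 24 differences were above 0, at a median of 0.09, with 5 at an unadjusted p under 0.05. Hal, which begins histidine breakdown, read 4.79, 4.95, 4.73 and 4.92 in WT and 5.98, 5.83, 5.79, 5.73 and 6.06 in LWT mice, 2.04-fold higher (1.03 ± 0.15, adjusted p = 8.97e-05). Its second probe was called too, at 0.80. Gnmt, a glycine methyltransferase that consumes S-adenosylmethionine, read 8.12 to 8.28 in WT and 8.61 to 8.99 in LWT (0.62 ± 0.11, adjusted p = 0.00137). Gls2, the liver glutaminase, read 6.01 to 6.32 in WT and 6.44 to 7.27 in LWT (0.56 ± 0.12, adjusted p = 0.0206, and 0.129 without WT replicate 1). The lines did not overlap for any of the 3.

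The urea cycle genes Cps1 (0.34), Ass1 (0.31) and Asl (0.43) were not called. Fenofibrate minus vehicle, from the same treated mice, was -0.78, -0.59 and -0.48 for Gls2, Gnmt and Hal in WT, and -0.34, -0.34 and -0.05 in LWT. Ahcy, which clears the product of Gnmt, was called too (0.36 ± 0.08, named after its values were seen), and its 2 other probes, at 0.30 and 0.33, were not. On vehicle the list's median difference was 0.25, with Bhmt called. Red blood cell markers, 4 measured and 0 called (2 at an unadjusted p under 0.05), had a median of 0.57, at mean levels of 2.98 to 3.46 in WT and 3.44 to 4.08 in LWT mice.

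The remaining lists held few calls. Of 24 genes of fatty acid and triglyceride synthesis Pnpla3 was lower and the median was -0.10. Cholesterol synthesis (25 genes, median -0.13), bile acid synthesis and transport (21, 0.12), xenobiotic metabolism (29, -0.02), NRF2 targets (17, 0.07), stress response (18, -0.04) and circadian clock genes (18, -0.16) had 0 called by limma. So had male-biased (16, -0.11) and female-biased genes (13, 0.02), the growth hormone axis (13, 0.05), acute phase genes (27, 0.06) and interferon and MHC genes (33, 0.12). Gluconeogenesis (18, 0.00), the cell cycle (21, 0.06) and oxidative phosphorylation (24, 0.09) likewise had 0. In each of these lists 1 to 5 genes had an unadjusted p under 0.05. The widest single difference among them was Asns, asparagine synthetase, which read 2.16, -0.87, 1.61 and 0.18 in WT and 2.80 to 4.39 in LWT mice. The lines did not overlap, and at 2.46 ± 0.61 it was not called (adjusted p = 0.0609). Kupffer cell (15 measured, median -0.03), endothelial (13, 0.00), lymphocyte and neutrophil (12, -0.14), adipocyte (3, -0.68) and pancreatic acinar (4, -0.02) markers had 0 called and 0 at an unadjusted p under 0.05.

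The vehicle groups hold other mice, so they give the line difference without the drug. Of the 84 genes, 75 had the same sign on vehicle, 32 were called there in the same direction and 0 in the opposite one. That is 38.1% of the fenofibrate list and 22.1% of the 145 genes called on vehicle (0.931% of all). On chromosome 15, 36 of 38 kept their sign and 25 were called on vehicle, and elsewhere 39 of 46 and 7. The replicate numbers paired the vehicle mice by their correlations, and with the replicate block 25 genes were called on vehicle. No gene was called for the interaction of line and drug by limma (0%), 689 had an unadjusted p under 0.05, and the other settings gave 0 to 3.

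**Figure D5:**
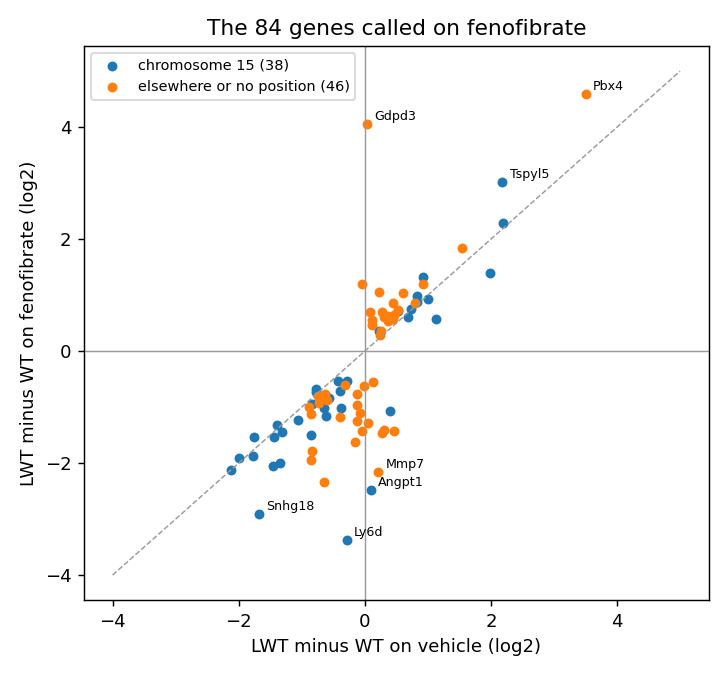
LWT minus WT difference (log2) on fenofibrate against that on vehicle for the 84 genes called on fenofibrate, chromosome 15 in blue and others in orange, with equality dashed. Of the 84 genes, 75 have the same sign on vehicle. Gdpd3, Ly6d, Mmp7 and Angpt1 have differences from -0.29 to 0.21 on vehicle. They are not the only genes away from the dashed line: unlabelled Tiam2 differs by 1.19 on fenofibrate and -0.05 on vehicle.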

How the data were processed

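Liver RNA of each mouse was hybridised to a one-colour Agilent array. The authors deposited scanner intensity values, which Agilent Feature Extraction 10.10.1.1 had background-corrected per the file headers (probe positions on mm9), and a value table whose log2 values, judged from the values themselves, were normalized by the authors. Each of its columns had a median of 7.63, and it was used as an alternative. The submitters' processing notes also name limma.

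Here, log2 of the processed intensity minus each array's 75th percentile was analysed. Spots with outlier flags were left missing, spots of a probe were averaged, and a probe was kept when all arrays of 1 or more groups showed it well above background. The brightest probe stood for a gene, and 15571 named genes were tested. Of 55681 probes, 32030 could be named, 27235 of them by accession. One model over all 34 arrays and 8 groups was fitted (limma 3.58.1, R 4.3.3, two-sided, Benjamini-Hochberg, threshold 0.05). The fit was tested on simulated data. Each array is 1 mouse, and the number of mice limits the precision. An "at least" fold compares the brighter group's mean with the higher of the dim probe's signal and the array's lowest signal well above background. The adjusted p beside it comes from the fit to the measured signals, dim ones included, and does not test that fold.

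Genes were named by a rule: the 10 largest rises and falls, up to 4 called or 2 uncalled members of each of 22 pathway and 9 marker lists, 12 anchors, called genes within 10 Mb of Ppara, and up to 10 genes, by size, also called on vehicle and between LKO and KO. Genes outside it (ATP8, AW549877, Dgkh, Lamc3, Klf5, Ahcy, Washc5, Med30, Itgb7, the genes near Pbx4 other than Rfxank, and further members of the lists given with values) were chosen after their values were seen. Some genes are not reported here. The members and lists were chosen with earlier results of these data known. Same-numbered mice were checked for pairing: correlations of deviations from group means were -0.081 to -0.002 on fenofibrate, so these mice share only a number, and 0.101 to 0.239 on vehicle, where the rule for pairing was met. Of the vehicle pairs, 3 shared a slide (0.101 to 0.239) and pair 1 did not (0.235). The 2 fenofibrate pairs that shared a slide were at -0.06 and -0.002. The alternatives were normalization, background correction, probe filter and summary, slide and replicate block, and each mouse left out.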

Additional observations from a re-analysis of the deposited data

Results flagged for a closer look

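In 104 groups of 4 or 5 treated mice, from 52 named genes, 9 had 1 mouse far from the others by Dixon's ratio (the gap to the nearest mouse over the group's range). Chance alone flags about 5% of groups, and these groups share mice. Of the 9, 5 were in LWT, 3 of them in replicate 3. For Pbx4, LWT replicate 3 was lowest at -3.80 against 1.01 to 1.97 (ratio 0.834). For Ly6d the same mouse was highest at 1.36 against -1.04 to -0.59 (0.812), and for Poldip3 it was highest at 5.18 against 4.84 to 4.92 (0.765). Snhg18 was lowest in LWT replicate 1 at -4.60 against -3.57 to -3.22 (0.746). Cyp4a10 was highest in LWT replicate 4 at 10.15 against 9.70 to 9.83 (0.711).

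In WT, replicate 4 was lowest for Bik at -0.60 against 0.19 to 0.33 (ratio 0.849) and for Tomm22 at 3.16 against 3.83 to 3.95 (0.848). Replicate 2 was highest for Dnal4 at 1.04 against 0.77 to 0.79 (0.926) and for Pick1 at -0.35 against -0.50 to -0.48 (0.867).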

How the results depend on the processing

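For LWT minus WT on fenofibrate, 84 genes were called, and 61 to 96 with quantile normalization, the authors' value table, other probe filters or summaries, other variance settings or the 2 groups alone. The count was 54 with normexp background correction and 141 with slide as a block. Chosen after seeing the data, slide and row on the slide as a block gave 147, the 2 slides with both groups 14 (9 on chromosome 15), genes outside chromosome 15 alone 29, and all detected probes 126. Leaving out 1 mouse gave 47 to 132 calls (28 to 39 on chromosome 15). The replicate block, fitted within the 2 groups where the replicate number paired no mice, left 0 calls (0 on chromosome 15). For LWT minus WT on vehicle 145 became 82 in the authors' table, 51 with the 2 groups alone, 25 with the replicate block, and 57 to 206 without 1 mouse (57 without LWT replicate 3, 81 without WT replicate 1 or 2). The interaction's 0 became 2 with normexp, 1 with probes above background on all arrays, 3 with slide as a block and 1 with trend and robust variances, and 0 to 2 without 1 mouse. The replicate block left it at 0. LKO minus KO on fenofibrate gave 2672 to 3522 calls without 1 mouse and 2878 with the replicate block. Dpys turned to -1.45 with the mean of all detected probes, since its probes oppose each other. Of 40 called named genes, 14 lost the call when 1 mouse was left out, and all 40 under the replicate block. The cause of the other shifts was not tested. Dim probes limit the rest: where a group is not above background, only a bound on the fold is given.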
